A study of Mus musculus with 3 samples.

Results

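Collecting duct principal cells were examined in kidneys of folic acid (FA)-treated mice by droplet single-cell RNA sequencing, in which each captured RNA molecule carries a cell barcode and a unique molecular identifier (UMI). Aoah-/- kidneys came from mice 2 and 3 of that genotype and the WT kidney from mouse 3 of its own, all labelled as 6 to 8 weeks old and treated with FA, collected on day 14, with 1 library per mouse and none from an untreated animal. Aoah encodes the lipase acyloxyacyl hydrolase, and its mutation was inherited, so that it is carried by all cells and not by the tubule alone. The files held 73281 barcodes, of which 48404 had at least 1672 UMIs, at least 200 genes and at most 50% of UMIs from mitochondrial (mt-) genes. Principal cells were chosen among them by measured expression: at least 2 UMIs of Aqp2, at least 1 UMI of Hsd11b2, Fxyd4, Aqp3 or Scnn1g, at most 2 UMIs of the other distal genes Atp6v1g3, Slc12a1 and Slc12a3 together, at most 2 of the proximal tubule genes Lrp2 and Slc34a1, and at most 1 of the leukocyte genes Ptprc and Tyrobp. This left 380 of the 48404 barcodes: 117 from Aoah-/- mouse 2, 129 from Aoah-/- mouse 3 and 134 from the WT mouse. Values of the 3 libraries are given below in that order.

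The principal cell is the sodium- and water-handling cell of the last part of the nephron. Vasopressin acts on its receptor AVPR2 on the blood side and brings the water channel AQP2 to the urine side, while water leaves the cell through AQP3 and AQP4. Aldosterone acts through the mineralocorticoid receptor to raise sodium entry by the epithelial sodium channel ENaC, and the enzyme HSD11B2 protects that receptor from glucocorticoids. Principal cells lie among acid-secreting intercalated cells, and upstream, in the connecting tubule, similar cells also carry the calcium-handling proteins calbindin and TRPV5.

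Aqp2 lies on chromosome 15 and has a GATA motif (AGATAA, or TTATCT on the other strand) in the 250 bases before its start, and Gata2 and Gata3 were expressed in these cells (values below). Over RefSeq promoters of mouse build GRCm38.p6, 9.99% of 32851 windows of this length held the motif. Of the 20 leading genes of the principal cells, 15 had a window in the table, and 1, Aqp2, held it. Counted by window, as for all promoters, 1 of their 19 (5.26%) held it. The window of Aqp2 is chr15:99578806-99579055 (plus strand), and it is shown with those of S100g, at chrX:162964600-162964849 (minus strand), and Klk1, at chr7:44225110-44225359 (plus strand), because the levels of these 3 genes set the cells apart below. Capitals mark the motif. A match describes the letters only.
Aqp2: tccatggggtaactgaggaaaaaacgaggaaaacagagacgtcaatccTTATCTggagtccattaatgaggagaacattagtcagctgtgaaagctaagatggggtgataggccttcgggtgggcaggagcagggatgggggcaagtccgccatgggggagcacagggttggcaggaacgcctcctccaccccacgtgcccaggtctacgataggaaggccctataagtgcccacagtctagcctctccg
S100g: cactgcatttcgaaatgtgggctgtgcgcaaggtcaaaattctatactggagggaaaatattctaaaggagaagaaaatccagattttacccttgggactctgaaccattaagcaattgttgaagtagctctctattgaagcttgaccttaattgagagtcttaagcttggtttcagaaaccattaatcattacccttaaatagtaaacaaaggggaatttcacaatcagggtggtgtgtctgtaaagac
Klk1: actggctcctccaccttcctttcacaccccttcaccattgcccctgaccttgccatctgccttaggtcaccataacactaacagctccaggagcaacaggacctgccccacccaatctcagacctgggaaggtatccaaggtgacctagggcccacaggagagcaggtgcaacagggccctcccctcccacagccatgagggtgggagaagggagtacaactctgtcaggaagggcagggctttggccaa

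The principal cells gave 1149272, 1059161 and 1262167 UMIs in all. Their median depth was 9484, 6733 and 8552 UMIs and 2786, 2302 and 2792 genes per cell, so the cells of Aoah-/- mouse 3 were the shallowest. The median share of mt- UMIs was 28.4%, 21.5% and 22.4%, highest in Aoah-/- mouse 2. No barcode was a principal cell in more than 1 library, although any pair of libraries shared 171 to 176 barcodes overall. The level of a gene is its UMI sum over the principal cells of a library for every 1000000 UMIs of those cells (CPM). Ranges in parentheses are 95% intervals, exact Poisson for levels and exact Clopper-Pearson for shares, and cover counting error only. Since a single WT mouse was sequenced, mice were compared without a test, and each difference is given as the log2 ratio of the mean of both Aoah-/- libraries to WT after 1 CPM was added, with the SD between the Aoah-/- libraries. The WT side has no replicate.

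Principal cells were 0.758% (95% interval 0.627 to 0.907), 0.655% (0.547 to 0.778) and 1.01% (0.847 to 1.19) of the barcodes within the quality limits. Both Aoah-/- shares were lower than that of WT, and the interval of Aoah-/- mouse 3 did not meet that of WT while the interval of Aoah-/- mouse 2 overlapped it. This order depended on the rule's limits on other genes. Before them, 236 of 15441, 380 of 19692 and 220 of 13271 barcodes had Aqp2 and a second marker. Aoah-/- mouse 3 then had the highest share. The limit on proximal genes took 175, 288 and 170 barcodes to 134, 159 and 141, which left its share the lowest. Of principal and intercalated cells together, principal cells made up 33.3% (28.4 to 38.5), 27.8% (23.8 to 32.1) and 46.5% (40.7 to 52.5), lower in both Aoah-/- libraries than in WT. The intercalated cells behind these shares numbered 234, 335 and 154, found by at least 2 UMIs of Atp6v1g3 and a second marker.

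Near the limits of the rule, 22 members had exactly 2 UMIs of Aqp2, and 39 barcodes that met every other condition had exactly 1 and were left out. The 19 principal cell genes that the rule did not use summed to 2596, 3349 and 3124 CPM in the former and to 2015, 2710 and 2718 CPM in the latter. In all members they summed to 4781, 4889 and 5072 CPM. At least 3 of these 19 genes were detected in 374 of the 380 members, and 1 member, in Aoah-/- mouse 3, had none.

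The profile of the cells was that of principal cells with a connecting tubule component. Of 1274 genes with a mean of at least 100 CPM, the 20 with the highest fold over all other barcodes of the same library, taking the lowest of the 3 folds after adding 10 CPM, are described here without a test, since expression chose the cells. The 5 genes of the rule were among them, led by Aqp2 at 83.4-, 71.5- and 117-fold and Hsd11b2 at 60.0-, 51.8- and 63.8-fold. Among the other 15 were Kcne1, a potassium channel subunit, at 27.8-, 29.9- and 30.9-fold, and Scnn1b, the beta subunit of ENaC, at 21.8-, 20.4- and 24.2-fold. Apela, which encodes a peptide ligand of the apelin receptor, stood at 24.2-, 20.4- and 37.4-fold. Avpr2, the vasopressin receptor, was 13.8-, 11.9- and 21.0-fold above the other cells, and the ammonia transporter gene Rhcg 16.1-, 14.8- and 17.9-fold. S100g, which encodes the small calcium-binding protein calbindin-D9k, was 24.9-, 20.9- and 28.5-fold above, and Calb1, which encodes calbindin-D28k, 17.1-, 11.6- and 12.2-fold. The remaining genes were Rasd1, Gstm2, Tbck, Cav2, Cav1, Gata2, Tmem45b and Phactr1, with lowest folds of 11.8 for Rasd1 to 9.73 for Phactr1. Caveolin genes Cav1 and Cav2 encode the coat of membrane pits.

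Markers of other cells were low but not all at 0. The 12 intercalated cell markers summed to 217, 240 and 204 CPM, most of it Atp6v1b1, and the anion exchanger gene Slc4a1 and Kit were at 0 in all 3 libraries. The 5 ascending limb markers summed to 87.9, 77.4 and 31.7 CPM, led by Umod, and Ppp1r1b was at 0. The 13 proximal tubule genes summed to 1333, 1597 and 1324 CPM, led by Kap, which stood at 17003, 22612 and 29793 CPM in the other cells of these libraries. In the same order, the 13 immune genes summed to 164, 231 and 34.1 CPM, with Lyz2 the most abundant, and the 4 hemoglobin genes to 64.4, 191 and 251 CPM, with Hbb-bs the most abundant. Hemoglobin genes are near-identical copies, and how their reads were shared out is uncertain.

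A subset of the members carried markers of other cells at a level that shaped the comparison of the libraries. At least 3 UMIs of the 7 urothelial genes were found in 13 of the 129 members of Aoah-/- mouse 3, in 1 of the 117 of Aoah-/- mouse 2 and in 0 of the 134 of WT. These 13 cells had 3 to 18 UMIs of Aqp2 and a median of 3168 UMIs. They held 3100 CPM of Ly6d, 1178 CPM of the uroplakin gene Upk3a, 2191 CPM of the keratin gene Krt19 and 62.0 CPM of S100g, against 24.7, 2.97, 49.5 and 17526 CPM in the other members of that library. Fxyd4 (1116 against 1170 CPM) and Gata3 (289 against 292 CPM) were near the other members. Aqp2 (2150 against 3069 CPM), Scnn1b (207 against 492 CPM) and Hsd11b2 (744 against 3478 CPM) were lower. At least 3 UMIs of the 7 endothelial genes were found in 4 members of Aoah-/- mouse 3 and 4 of WT, and at least 3 of the 5 fibroblast genes in 3 members of WT. The urothelial list summed to 11.3, 111 and 3.17 CPM over all members, led by Upk3a, the endothelial list to 10.4, 42.5 and 132 CPM, led by Egfl7, and the fibroblast list to 0.870, 2.83 and 292 CPM, led by Dcn. Together 25 members, 1, 17 and 7 by library, met 1 of these limits, which were set after the data were seen. Whether they are doublets, other cells or cells with free RNA was not tested. Doublets were not called. Of 836 barcodes with Aqp2 and a second principal cell gene, 633 met the limit on other distal genes, 434 also that on proximal genes and 380 also that on leukocyte genes.

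Few genes differed by 2-fold between the libraries. Of 14798 genes with a UMI in the principal cells, 2744 had a mean of at least 50 CPM. The median log2 ratio over these 2744 genes was -0.12, and with median-of-ratios size factors in place of total UMIs it was 0.01. Values relative to the median gene are therefore given for the main genes. Both Aoah-/- libraries lay above WT for 534 genes (19.5%) and below WT for 1476 (53.8%). At least 2-fold higher in each Aoah-/- library than in WT were 6 genes (0.219%), Ly6d, Isg15, H2-Aa, Cd74, Foxq1 and Klk1. At least 2-fold lower were 9 (0.328%), Dcn, Hbegf, Akr1b3, Cyr61, Gsn, Cryab, Hspb1, Arl4c and Ppic. The higher genes were thus 40.0% of the calls, against 53.8% with median-of-ratios size factors, 54.5% without mt- genes in the total and 75.0% with the mean of per-cell CPM. With Aoah-/- mouse 3 alone against WT 15 genes were higher and 20 lower, and with Aoah-/- mouse 2 alone 4 and 25, which hold all 9 of the lower genes but 2 of the 6 higher. The other 4, Ly6d, Isg15, H2-Aa and Cd74, were still over 2-fold higher there, with log2 ratios of 4.92, 2.75, 1.12 and 1.61, but had a mean under 50 CPM.

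**Figure D1:**
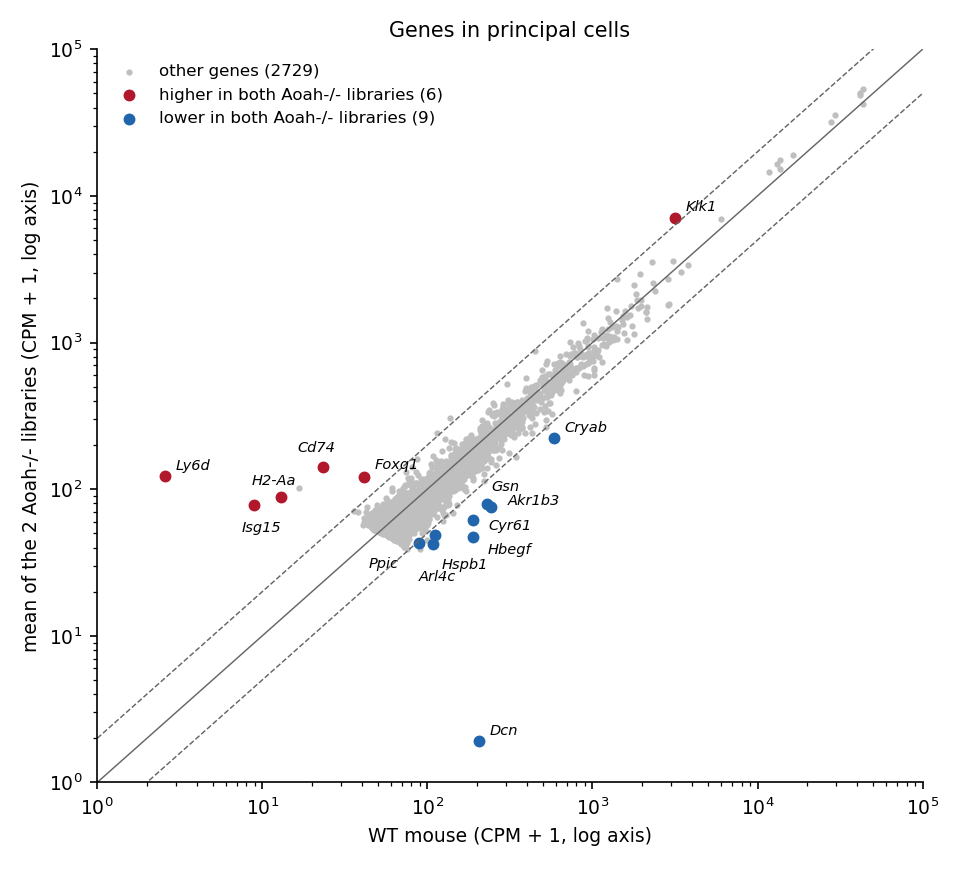
Levels of the 2744 genes with a mean of at least 50 CPM in the principal cells, WT on the x axis and the mean of the Aoah-/- libraries on the y axis, both in CPM plus 1 on log axes; the solid line marks equal levels and the dashed lines 2-fold. The 6 genes higher and 9 lower in both Aoah-/- libraries are named, and Klk1 is the most abundant of them.

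Klk1, which encodes tissue kallikrein, was the most abundant of these 15 genes. Its level was 7273 (7118 to 7431), 6957 (6799 to 7118) and 3167 (3069 to 3267) CPM. Both Aoah-/- libraries lay well above WT and close to each other, with a log2 ratio of 1.17 (SD 0.05), or 1.29 relative to the median gene. The 3 members with most Klk1 gave 36.5%, 38.1% and 47.2% of its UMIs, so a small number of cells carried much of the level in each library. After each cell was thinned to 1672 UMIs, 31.6% (23.3 to 40.9), 30.2% (22.5 to 38.9) and 18.7% (12.5 to 26.3) of the members held a Klk1 UMI, against 45.3%, 40.3% and 33.6% unthinned. In ascending limb cells of the same libraries the thinned shares were 53.6%, 59.7% and 70.2%, higher than in principal cells in all 3 libraries and highest in WT. The median depth of those cells was 8731, 5687 and 6967 UMIs. With principal cells limited to 20% mt- UMIs, 38, 55 and 58 cells were left, with Klk1 at 853, 1061 and 78.9 CPM (log2 ratio 3.58). Few of these cells held most of the Klk1 in the Aoah-/- libraries. In mouse 2 they had 4225, 13849 and 7060 UMIs, with 4.69%, 0.838% and 0.637% from Klk1. In mouse 3 they had 5967 and 13058 UMIs, with 3.54% and 1.20% from it. Without the 10% of cells with most UMIs the log2 ratio was 0.79. Klk1 belongs to a family of near-identical genes, so part of its reads may be split among copies.

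Calb1 showed a similar difference that stayed just under 2-fold in both Aoah-/- libraries. It stood at 2636 (2543 to 2731), 2801 (2701 to 2904) and 1408 (1343 to 1475) CPM, a log2 ratio of 0.95 (SD 0.06). Slc8a1, the sodium-calcium exchanger by which calcium leaves these cells, was at 124, 113 and 75.3 CPM. S100g, by contrast, was at 13824, 16728 and 13728 CPM, with a log2 ratio of 0.15 (SD 0.19) that is less than the spread between the Aoah-/- libraries. Trpv5, the channel by which calcium enters, was at 80.1, 108 and 93.5 CPM, WT lying between the Aoah-/- libraries. Thus 1 of the 5 connecting tubule genes, Klk1, was called higher, as were 0.219% of all counted genes, the median of the 5 log2 ratios was 0.65 beside -0.12 over all genes, and with cells limited to 20% mt- UMIs that median was -0.06.

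**Figure D2:**
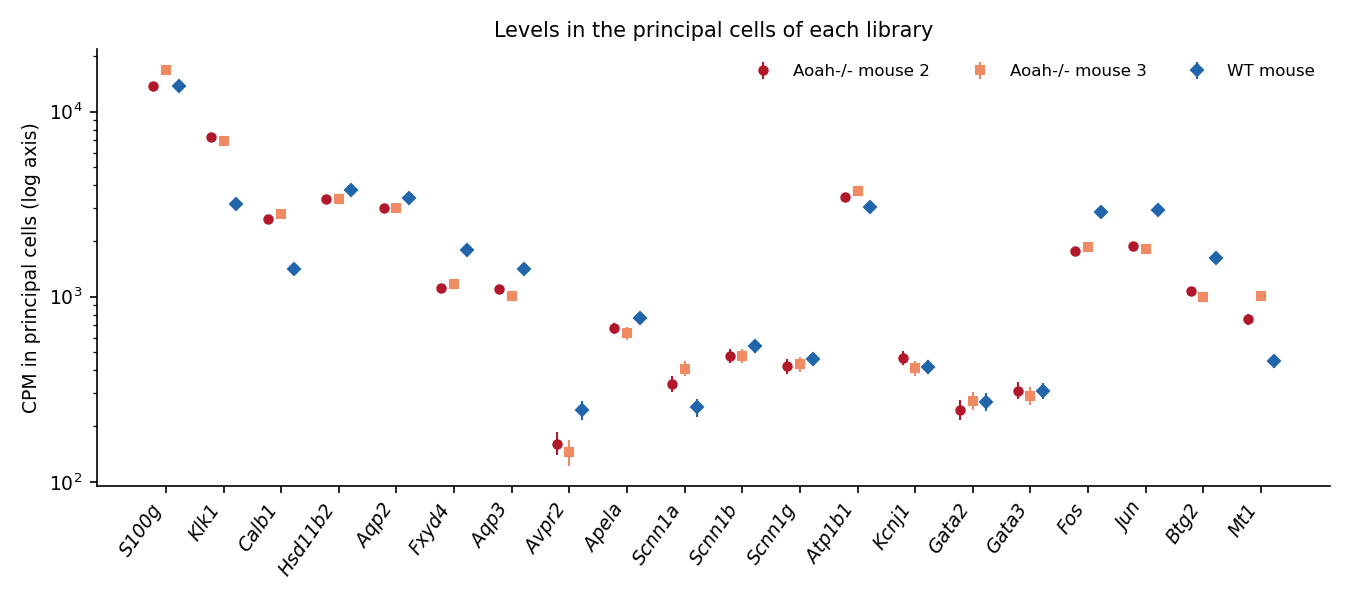
Levels of 20 genes in the principal cells of each library, in CPM on a log axis, with exact Poisson 95% intervals as bars. Klk1, Calb1 and Mt1 lie higher in both Aoah-/- libraries and Fxyd4, Avpr2, Fos, Jun and Btg2 lower, while Scnn1g, Gata2 and Gata3 are close in all 3 libraries. Fxyd4 and Scnn1g are genes of the rule that chose the cells.

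The members fell along a range from cells rich in Aqp2 to cells rich in S100g. Pearson's r between the log2 levels of S100g and Aqp2 across cells was -0.67 (117 cells), -0.52 (129 cells) and -0.55 (134 cells). For S100g and Klk1 it was 0.78, 0.69 and 0.44, and for Aqp2 and Fxyd4 0.71, 0.69 and 0.69. These values describe cells that share a library and a depth measure, and Aqp2 took part in choosing them. To describe the range, members with at least 1% of their UMIs from S100g were set apart, a limit chosen after the data were seen. They numbered 41, 45 and 47, or 35.0% (26.5 to 44.4), 34.9% (26.7 to 43.8) and 35.1% (27.0 to 43.8) of the members, a like share in each library. Among members with at most 20% mt- UMIs the share was lower, at 18.4% (7.74 to 34.3), 25.5% (14.7 to 39.0) and 19.0% (9.87 to 31.4), or 7 of 38, 14 of 55 and 11 of 58 cells. Within a factor of 2 of the limit lay 13, 20 and 23 members. The S100g-high members had a higher median share of mt- UMIs (32.6%, 26.5% and 26.3%) than the others (23.9%, 20.1% and 18.7%), and those of both Aoah-/- libraries also more UMIs (11155 and 11013 against 8515 and 5082). In WT their median was 8141 against 8781 UMIs. A part of the members thus carried genes of the connecting tubule, which the name collecting duct does not cover.

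**Figure D3:**
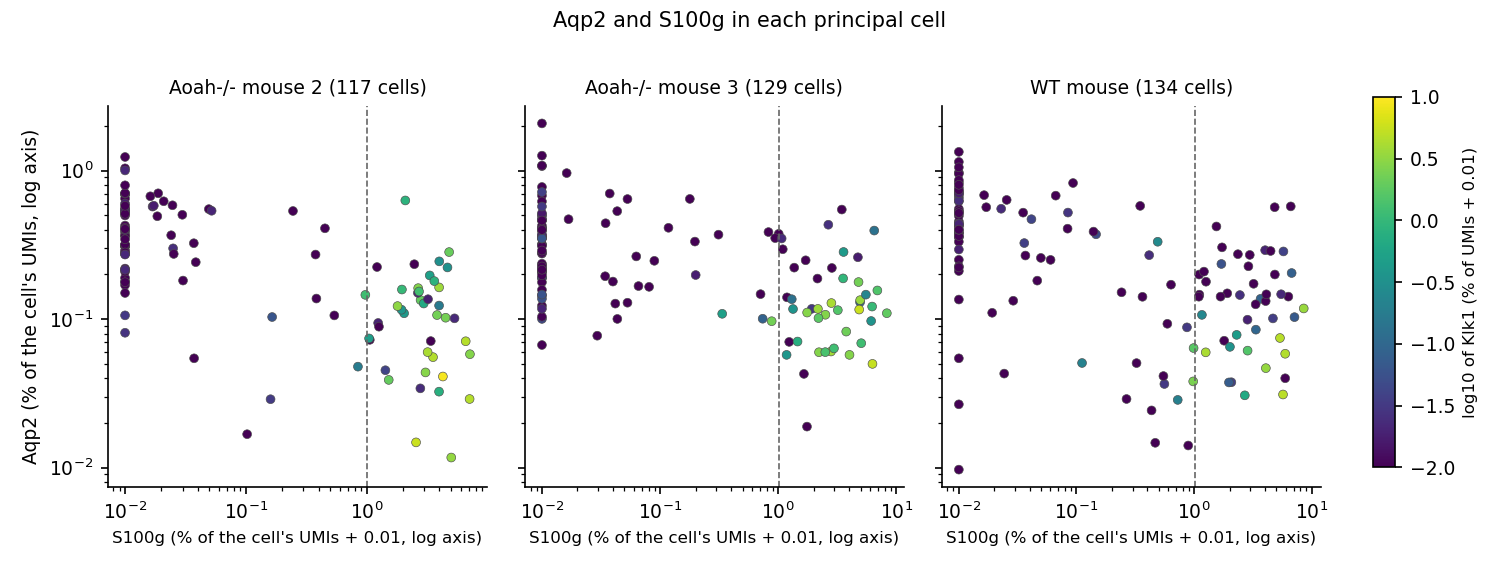
Each point is 1 principal cell, with the share of its UMIs from S100g plus 0.01% on the x axis and from Aqp2 on the y axis, both in percent on log axes, coloured by the log10 of its Klk1 share plus 0.01%; the dashed line marks the 1% limit of S100g. About 35% of the members of each library lie right of the line, and 18, 20 and 7 of these have at least 1% of UMIs from Klk1.

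At the S100g-high end the leading genes besides S100g were Klk1, Kl, Wnk1, Slc8a1, Kng2, Trpv5, Calb1, Spp1 and Sostdc1. Kl encodes klotho, a co-receptor of the phosphate hormone FGF23, and was at 1762, 2111 and 1574 CPM in S100g-high members against 262, 328 and 299 CPM in the others. Wnk1, a kinase that controls salt transport, was at 883, 610 and 505 CPM against 122, 116 and 120 CPM. Genes at the other end included S100a6, Mcoln3, S100a11, Gsta3, Cryab, Gstm2, Adh1, Plet1 and Irf1. S100a6 rested in part on the members with urothelial genes, which held 267 of its 337 UMIs (79.2%) in Aoah-/- mouse 3, and its log2 ratio was 0.10 over all members and -1.64 without the 25 members that carry other markers. S100a11 was at 932, 1109 and 1063 CPM there and at 194, 193 and 164 CPM in S100g-high members. Aqp2 itself was at 4303, 4188 and 4355 CPM in the S100g-low and at 1182, 1638 and 1588 CPM in the S100g-high members, and Hsd11b2 at 3788, 3758 and 3882 against 2731, 2868 and 3612 CPM. Scnn1b was at 478, 536 and 570 CPM against 484, 411 and 477 CPM, so ENaC transcripts were present along the whole range.

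Within the S100g-high members the libraries differed in Klk1, Calb1, Spp1 and Mt1 and not by much in S100g. Klk1 was at 17619, 15122 and 8560 CPM, with a log2 ratio of 0.94 (SD 0.16), and at least 1% of UMIs came from it in 18 of 41, 20 of 45 and 7 of 47 cells (43.9%, 28.5 to 60.3; 44.4%, 29.6 to 60.0; 14.9%, 6.20 to 28.3). The median cell held 8376, 4111 and 90.2 CPM of Klk1, and 5, 11 and 23 of these cells had no Klk1 UMI. Calb1 was at 4644, 4242 and 2655 CPM (log2 ratio 0.74, SD 0.09), with medians over cells of 3431, 3982 and 1826 CPM. Spp1, which encodes osteopontin, was at 5218, 5961 and 3135 CPM (0.83, SD 0.14), with cell medians of 4600, 5799 and 2822 CPM. Mt1, a metallothionein that binds zinc, was at 1265, 1617 and 479 CPM (1.59, SD 0.25). Fos was lower at 1022, 1031 and 1856 CPM (-0.85, SD 0.01). Fxyd4, which regulates the sodium pump, was at 224, 400 and 797 CPM (-1.35, SD 0.59). It is a gene of the rule, so its level describes the choice of cells as well and supports no comparison. In S100g-low members Klk1 was low in all 3 libraries, at 147, 132 and 423 CPM, and most of it lay close to the limit. Members with 0.5% to 1% of UMIs from S100g, 3, 5 and 9 cells, held 80 of the 100, 50 of the 76 and 302 of the 354 Klk1 UMIs, and 285 of the WT UMIs were in 2 cells. Below 0.5% of S100g, Klk1 was at 30.1, 48.1 and 67.5 CPM, from 20, 26 and 52 UMIs. Spp1 stood at 951, 879 and 1321 CPM in S100g-low members and at 887, 812 and 1272 CPM below 0.5%, lower in both Aoah-/- libraries in either case and thus on the other side of WT than in S100g-high members, a difference that was not tested. In 2 S100g-low cells of each library lay 111 of 647, 80 of 507 and 314 of 1105 Spp1 UMIs, the largest part in WT. Calb1 was again higher in both Aoah-/- libraries, at 1252, 1597 and 773 CPM, and Mt1 was at 401, 499 and 433 CPM.

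Among genes of water transport, the receptor gene Avpr2 was lower in both Aoah-/- libraries. Aqp2 and Aqp3 took part in choosing the cells, so their levels, given next, describe the choice as well and support no comparison. Aqp2 was at 3030, 3027 and 3422 CPM, a log2 ratio of -0.18 (SD 0.00) that is -0.05 relative to the median gene. Aqp3 was at 1095, 1010 and 1410 CPM (-0.42, SD 0.08), and Aqp4 at 55.7, 51.0 and 71.3 CPM. Avpr2 was at 161 (139 to 186), 144 (122 to 168) and 243 (217 to 272) CPM (-0.67, SD 0.12), with Aoah-/- intervals that do not meet that of WT. Gnas, the stimulatory G protein that follows the receptor, was at 547, 520 and 558 CPM. Of the 19 genes of the vasopressin and water list, 10 were counted, 0 passed 2-fold in either direction, and 8 lay below WT in both libraries, as did 53.8% of all counted genes. Their median log2 ratio was -0.19, near the -0.12 of all genes. Aqp2 and Aqp3 are among the counted genes of this list.

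None of the counted sodium and potassium transport genes passed 2-fold, and they lay on both sides of WT. Scnn1a, the alpha subunit of ENaC, was at 338 (305 to 373), 409 (371 to 449) and 252 (225 to 281) CPM (0.57, SD 0.19), higher in both Aoah-/- libraries. The beta and gamma subunits Scnn1b and Scnn1g were at 480, 479 and 539 CPM and at 421, 431 and 460 CPM, with log2 ratios of -0.17 and -0.11. Atp1b1, the beta subunit of the sodium pump, was at 3469, 3728 and 3055 CPM (0.24). Fxyd4 was at 1114 (1054 to 1176), 1168 (1104 to 1235) and 1793 (1720 to 1868) CPM (-0.65, SD 0.05). Both Fxyd4 and Scnn1g are genes of the rule that chose the cells. Kcnj1, the potassium channel of the urine side, was at 466, 410 and 417 CPM, and Kcnma1 was at 0 in all libraries. Of 11 counted genes of this list 0 passed 2-fold, 5 were above and 5 below WT in both libraries, against 19.5% above and 53.8% below over all genes, and the median log2 ratio was 0.07. Nr3c2, the mineralocorticoid receptor, was at 60.9, 69.9 and 95.1 CPM, and its target Sgk1, a kinase that keeps ENaC at the surface, at 356, 382 and 286 CPM. In the mineralocorticoid list of 14 genes, 7 were counted and 0 passed 2-fold, with a median of -0.07. Its most abundant gene, Hsd11b2, is also a gene of the rule.

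Transcription factors of the collecting duct were close between the libraries. Gata2 was at 245, 274 and 270 CPM and Gata3 at 311, 292 and 310 CPM. Tfcp2l1, which is needed for both main cell types of the duct, was at 707, 894 and 879 CPM, and Tfap2b at 209, 228 and 210 CPM. Of 18 factors 12 were counted and 0 passed 2-fold, and the median log2 ratio was -0.07. Hes1, the main Notch target, was at 1321, 1276 and 1383 CPM. Wnt7b, a collecting duct ligand, had 1, 4 and 23 UMIs in 1, 4 and 19 cells, and Elf5 had 7, 4 and 21 UMIs, both under the 50 CPM needed to be counted.

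Immediate early genes were lower in both Aoah-/- libraries, none of them by 2-fold in each. Fos was at 1772 (1696 to 1851), 1858 (1777 to 1942) and 2863 (2771 to 2958) CPM (-0.66, SD 0.05), or -0.53 relative to the median gene. Jun was at 1868, 1810 and 2926 CPM (-0.67, SD 0.03), Junb at 1401, 1495 and 2147 CPM, and Btg2, an inhibitor of growth, at 1070, 999 and 1612 CPM. Of the 16 counted genes of this list 15 lay below WT in both libraries and 0 above, against 53.8% below and 19.5% above over all genes. None passed 2-fold, and the median log2 ratio was -0.65. Over the alternatives run, this median ranged from -0.71 to -0.27. The summed level was 11418, 11849 and 17460 CPM. In ascending limb cells the sum was 16659, 15159 and 22351 CPM, in distal convoluted cells 7515, 5945 and 11233 CPM, and in intercalated cells 15989, 19017 and 18544 CPM, so the lower sum was also found in 2 of these 3 neighbouring classes. Immediate early and heat shock genes are known to respond to tissue digestion as well, and its part in these values was not tested.

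**Figure D4:**
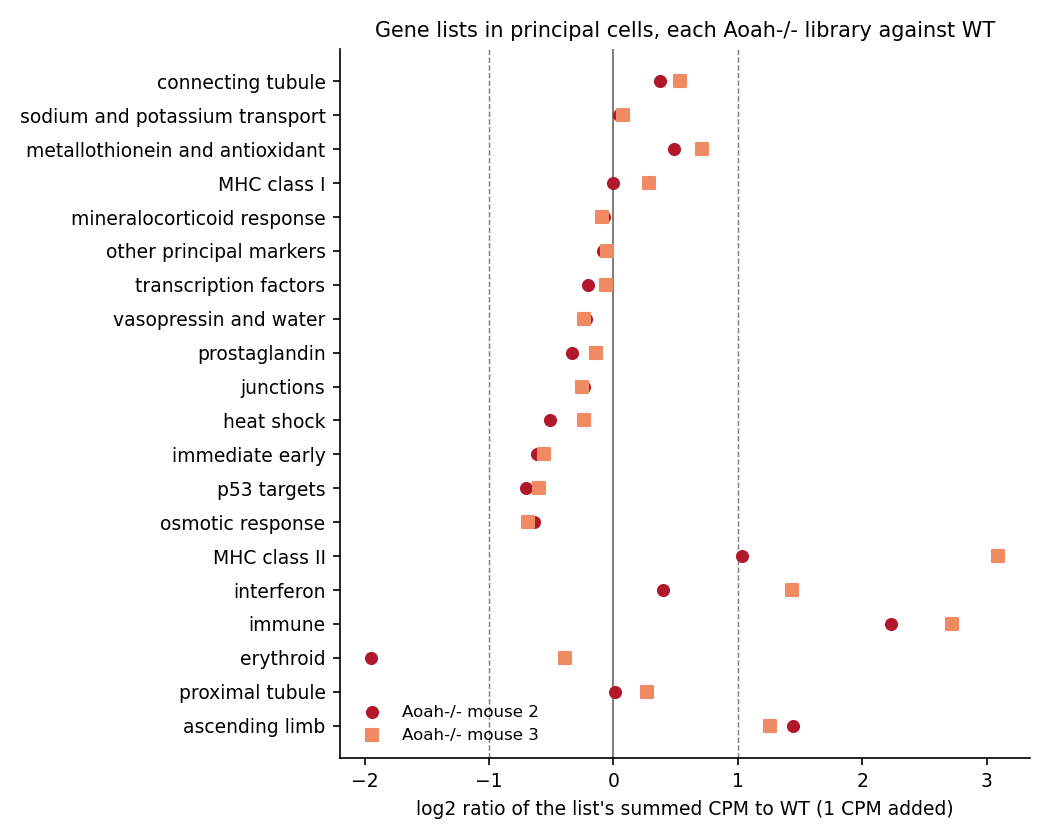
Log2 ratio of the summed CPM of 20 gene lists in principal cells of Aoah-/- mouse 2 (circles) and Aoah-/- mouse 3 (squares) to WT, with dashed lines at 2-fold. The immediate early, p53 and osmotic lists lie below WT in both libraries with the 2 points close together, while the MHC class II, interferon and erythroid lists lie far apart between the Aoah-/- libraries. In the osmotic list 5 genes were counted and 4 lay below WT in both libraries, as did 53.8% of all counted genes, with a median of -0.42. The 1 called lower (0.328% of all were), Akr1b3, had 241 of its 306 WT UMIs in 3 cells.

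Most counted heat shock, p53 and junction genes were below WT in both Aoah-/- libraries, as were 53.8% of all counted genes. The metallothionein genes Mt1 and Mt2 were above it over all members but not in S100g-low members. Of 8 heat shock genes all were counted, 7 lay below WT in both libraries, and the median was -0.58. Of these 1, Hspb1, was called lower, at 29.6, 52.9 and 107 CPM, as were 0.328% of all counted genes. Hspa8 was at 765, 721 and 1012 CPM, and Hspa1a at 91.4, 237 and 344 CPM. The heat shock list summed to 3354, 4056 and 4779 CPM. In intercalated cells its sum was 5238, 5447 and 6056 CPM and in ascending limb cells 4184, 4569 and 5318 CPM. In distal convoluted cells it was 3741, 3608 and 4916 CPM, so the lower sum was also found in each of these neighbouring classes. Of 10 p53 targets 4 were counted, 3 of them below WT in both libraries and 0 past 2-fold, with a median of -0.39. Gdf15, a stress cytokine and p53 target, was at 276, 255 and 524 CPM (-0.98, SD 0.08). The p53 list summed to 569, 611 and 925 CPM. Its sum was also lower in both Aoah-/- libraries in ascending limb cells (343, 352 and 427 CPM) and distal convoluted cells (379, 298 and 601 CPM). In intercalated cells it was 544, 565 and 573 CPM. Epcam, an epithelial adhesion molecule, was at 294, 258 and 447 CPM, and Cldn4, a claudin of the tight junction, at 94.8, 105 and 165 CPM. Of the 13 junction genes 8 were counted, 6 of them below WT in both libraries and 1, the cadherin gene Cdh1 (328, 318 and 307 CPM), above, and 0 passed 2-fold, with a median of -0.37 beside -0.12 over all genes. The junction list summed to 2705, 2670 and 3190 CPM. Its sum was 2733, 2684 and 2862 CPM in intercalated cells and 1821, 1897 and 1949 CPM in distal convoluted cells. In ascending limb cells it was higher in both Aoah-/- libraries, at 1978, 1988 and 1869 CPM. Among injury genes, Lcn2, which encodes NGAL, was at 111, 61.4 and 107 CPM, WT lying between the Aoah-/- libraries. Clu, a chaperone, was at 1720, 1553 and 1577 CPM, and Havcr1, which encodes KIM-1, was at 0. Mt1 was at 754, 1008 and 448 CPM over all members (0.97, SD 0.30) and Mt2 at 174, 163 and 107 CPM.

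Several of the genes past 2-fold rested on a small number of cells. Ly6d, a surface protein of urothelium among other cells, had 89, 175 and 2 UMIs. In Aoah-/- mouse 2, 86 of the 89 lay in 1 cell, and in Aoah-/- mouse 3 150 of the 175 lay in the 13 members with urothelial genes. The ratio of both Aoah-/- libraries to WT was 75.4 with a counting interval of 20.7 to 626. Foxq1, a forkhead factor, had 104, 159 and 51 UMIs, of which 65 of the 104 and 107 of the 159 were in the same cell and the same 13 members. Dcn, a matrix proteoglycan of fibroblasts, had 1, 1 and 258 UMIs, 251 of the WT UMIs lying in 3 cells. WT exceeded both Aoah-/- libraries 226-fold (61.9 to 1874), an interval that does not cover the spread between cells. Gsn had 198 of its 288 WT UMIs in 3 cells. In the other cells of the libraries Dcn was at 10.4, 11.8 and 449 CPM and Gsn at 55.9, 53.2 and 271 CPM, so neither difference was particular to principal cells. Akr1b3 (211, 92.4 and 90.2 CPM) and Arl4c (34.9, 44.6 and 28.4 CPM) were not lower there. Akr1b3, which makes the osmolyte sorbitol, had 65, 99 and 306 UMIs, with 241 of the WT UMIs in 3 cells, and the urea transporter gene Slc14a2 had 23 UMIs in 2 WT cells and 0 elsewhere. Cryab, a small heat shock protein, had 255 of its 740 WT UMIs in 1 cell. Ppic, a cyclophilin, was more evenly spread, at 41.8, 42.5 and 87.9 CPM with 15 of its 111 WT UMIs in 3 cells. Arl4c, a small GTPase, stood at 54.8, 40.6 and 111 CPM. The Aoah-/- means of Dcn, Hbegf, Hspb1, Arl4c and Ppic were 0.907, 45.9, 41.2, 47.7 and 42.1 CPM. These genes thus reached the mean of 50 CPM through WT, the side where they are high. Ly6d and Foxq1, at 1.58 and 40.4 CPM in WT, reached it through the Aoah-/- libraries.

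Without the 25 members with markers of other cells, 116, 112 and 127 cells remained, 5 genes were at least 2-fold higher (0.183% of 2738) and 8 at least 2-fold lower (0.292%). Of the 6 genes higher among all members, 3 were again called, Isg15, Cd74 and Klk1, and of the 9 lower 4, Hbegf, Akr1b3, Cyr61 and Cryab. The others lost their call in different ways. H2-Aa and Hspb1 had log2 ratios of 2.47 and -2.03 but a mean under 50 CPM, as had Dcn at -1.83. Ly6d was at 2.65, 25.0 and 1.69 CPM, so Aoah-/- mouse 2 was no longer 2-fold above WT, while Arl4c (-1.17) and Ppic (-0.95) changed little and were no longer 2-fold lower in each library. Klk1 was then at 7381, 7300 and 3366 CPM. Hbegf, a growth factor of the EGF family, was at 41.5, 40.0 and 175 CPM, and over all members 119 of its 237 WT UMIs (50.2%) lay in 3 cells. Cyr61, a matrix protein induced by stretch, was at 71.6, 48.0 and 194 CPM. Foxq1 was at 34.5, 52.0 and 42.2 CPM and Gsn at 73.3, 73.0 and 74.2 CPM, WT lying between the Aoah-/- libraries or next to them. Ifit1 and Apoe were added to the higher genes, and S100a6, Atf3, Cebpb and Klf4 to the lower. Ifit1 had nearly the same levels as before, 15.9, 134 and 4.22 CPM against 15.7, 127 and 3.96 CPM, and was added because its mean passed 50 CPM. Apoe stood at 73.3, 67.0 and 30.4 CPM, against 74.0, 65.1 and 34.9 CPM over all members, and Atf3 at 126, 116 and 310 CPM, against 148, 205 and 311 CPM.

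**Figure D5:**
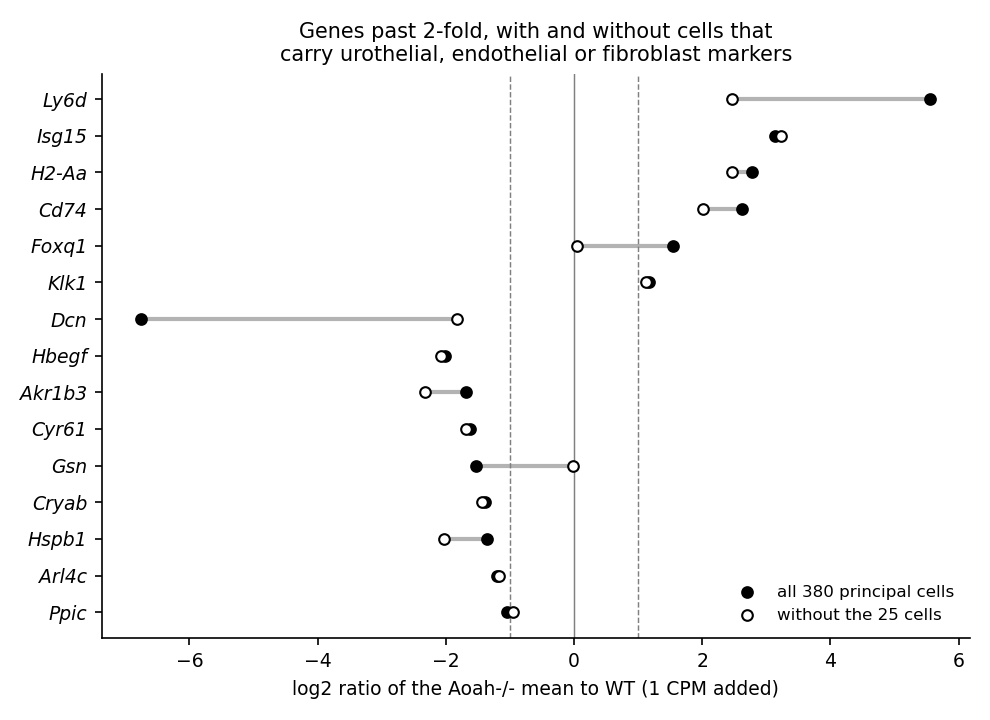
Log2 ratio of the Aoah-/- mean to WT of the 15 genes past 2-fold, over all 380 principal cells (filled) and without the 25 members that carry urothelial, endothelial or fibroblast markers (open); dashed lines mark 2-fold. Klk1, Isg15, Hbegf, Cyr61 and Cryab keep their position, and Foxq1 and Gsn move to about 0.

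MHC class II genes were scarce in the principal cells. Cd74, the invariant chain and receptor of the cytokine MIF, was at 69.6 (55.2 to 86.6), 213 (186 to 243) and 22.2 (14.7 to 32.1) CPM (2.62, SD 1.13), with 80, 226 and 28 UMIs. In the other cells of the libraries it was at 1525, 1870 and 1288 CPM. Thinned to 1672 UMIs, 10.3% (5.41 to 17.2), 24.0% (16.9 to 32.3) and 5.97% (2.61 to 11.4) of the members held a Cd74 UMI, against 8.25%, 21.6% and 7.26% of ascending limb cells. Unthinned, the shares were 33.3%, 45.0% and 14.9% in members and 29.6%, 41.1% and 18.9% in ascending limb cells. The interval of each members' share holds the share of ascending limb cells, a tubule type with little Cd74 (64.3, 155 and 47.4 CPM). Of the 226 UMIs in Aoah-/- mouse 3, 129 (57.1%) were in the 13 members with urothelial genes, at 2666 CPM, as were 81 of 156 H2-Aa UMIs. H2-Aa was at 27.0, 147 and 11.9 CPM. Without the 25 members with other markers, Cd74 was at 70.7, 93.0 and 19.4 CPM and still called, and H2-Aa at 27.4, 75.0 and 8.43 CPM was not. Of the 7 class II genes 3 were counted, Cd74, H2-Aa and H2-Ab1, and 2 were called higher, as were 0.219% of all counted genes. Their median was 2.62 beside -0.12 over all genes. All 3 were under 50 CPM in WT and reached that mean through the Aoah-/- libraries. These values thus describe genes chosen by their high side. The genes not counted, H2-Eb1, H2-DMa, H2-DMb1 and Ciita, had log2 ratios of 2.08, 1.84, 0.32 and 0.56. The 13 immune genes moved the same way, summing to 164, 231 and 34.1 CPM, with Lyz2 at 50.5, 65.1 and 15.8 CPM and Cd52 at 19.1, 62.3 and 5.55 CPM, and their part in the class II levels was not tested. The class I genes H2-K1 and B2m were at 434, 509 and 437 CPM and at 275, 377 and 258 CPM, and 0 of the 4 counted class I genes passed 2-fold. H2 genes are similar to each other, so their reads may be split.

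Interferon-induced genes were carried by few members. Isg15, a ubiquitin-like protein induced by interferon, had 68, 101 and 10 UMIs in 19, 14 and 8 cells, or 59.2, 95.4 and 7.92 CPM (3.13, SD 0.48). In Aoah-/- mouse 3, 84 of its 101 UMIs were in 3 cells, and in Aoah-/- mouse 2 35 of 68. Ifit1 was at 15.7, 127 and 3.96 CPM, with 121 of 135 UMIs of Aoah-/- mouse 3 in 3 cells. Of the 16 genes 3 were counted and 1 was called higher (0.219% of all counted genes were), with a median of 0.43 beside -0.12 over all genes, and the list summed to 312, 642 and 237 CPM. That median was -0.32 with Aoah-/- mouse 2 alone. Isg15, the gene called, was at 7.92 CPM in WT and was counted through the Aoah-/- libraries.

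Signals that principal cells can send were mostly low. Spp1 was at 2691, 3193 and 1932 CPM (0.61, SD 0.17), and Mif, the ligand of the Cd74 product, at 372, 554 and 387 CPM. Edn1, the endothelin that limits sodium uptake in the duct, was at 19.1, 26.4 and 67.3 CPM, and the neutrophil attractant Cxcl1 at 17.4, 9.44 and 53.1 CPM, both too low to be counted. Of 19 genes 5 were counted and 1 (Cyr61) was called lower, as were 0.328% of all counted genes, and the median was -0.09 beside -0.12 over all genes. Ptges, the synthase of prostaglandin E2, was at 187, 257 and 252 CPM, and Ptger1, a receptor for it that limits sodium uptake, at 38.3, 40.6 and 71.3 CPM.

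Aoah itself had 1, 2 and 3 UMIs in the principal cells, in as many cells, too few to compare (ratio 0.572, counting interval 0.0765 to 4.27). Over all barcodes it had 1014, 914 and 2424 UMIs, or 6.06, 5.68 and 15.3 CPM, lower but not absent in the Aoah-/- libraries. The assay reads the 3′ end of transcripts, and the part of the gene that was deleted is not given in the sources used here, so these counts do not check the genotype labels.

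In neighbouring tubule cells some of the same genes lay on the other side of WT. Klk1 was at 2841, 3608 and 2907 CPM in intercalated cells, at 1735, 2197 and 2700 CPM in ascending limb cells and at 2403, 2830 and 2847 CPM in distal convoluted cells. Both Aoah-/- libraries were thus below WT in the latter pair of classes and above it in principal cells, a difference that was not tested. Calb1 was at 2067, 2890 and 1734 CPM in distal convoluted cells, higher in both Aoah-/- libraries as in principal cells, and at 79.0, 204 and 564 CPM in intercalated cells. Hbegf was at 101, 108 and 255 CPM in distal convoluted cells, and at 679, 494 and 650 CPM in ascending limb cells.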

How the data were processed

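Kidneys were digested with collagenase and single cells were captured with a 3′ kit of 10x Genomics. The deposited values are UMI counts, made by the authors for 27998 genes in each barcode and left without normalization. The submitters' processing notes name Cell Ranger 3.1.0, STAR, Seurat 4.2.0 and the mm10 build, whereas per the file headers the matrices were written by Cell Ranger 6.1.2. Total counts were 167222984, 161015021 and 158551992 UMIs in Aoah-/- mouse 2, Aoah-/- mouse 3 and WT. Barcodes reached down to 500, 1672 and 500 UMIs, so 1672 was the minimum for all.

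UMIs were summed per library over the principal cells and divided by the total. Genes with a mean of at least 50 CPM over the 3 libraries were counted, and a gene was called when each Aoah-/- library was at least 2-fold above, or at least 2-fold below, WT after 1 CPM was added. The text names the 20 leading profile genes, up to 10 called genes in each direction, and members of 32 gene lists (303 genes). The members and lists were chosen with earlier results of these data known. Intercalated, ascending limb and distal convoluted cells were found by similar rules from Atp6v1g3, Slc12a1 and Slc12a3. Doublets were not called. The calling step was also run on simulated data, and the outcome is not reported here. numpy 2.4.6, scipy 1.17.1 and pandas 2.3.3 were used. Gene positions and promoters are of GRCm38. The precision is that of 117 to 134 cells per library. Alternatives changed the cell limits, scaling, pseudocount, weight of cells, level filter and libraries. Some results are not reported here.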

Additional observations from a re-analysis of the deposited data

Results flagged for a closer look

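Among the 15 genes past 2-fold in principal cells, those below had both Aoah-/- libraries on the opposite side of WT in another tubule class, which is what singled them out. None of these differences between classes was tested, and several rest on low levels. In intercalated cells Ppic had 31, 31 and 13 UMIs (9.01, 9.32 and 6.20 CPM) and Arl4c was at 31.1, 28.6 and 23.8 CPM, with counting intervals that overlap that of WT. Ppic in ascending limb cells was at 14.7, 24.5 and 8.22 CPM, and Isg15 in intercalated cells at 12.2, 15.3 and 25.3 CPM. Foxq1 in distal convoluted cells was at 26.9, 7.15 and 37.7 CPM. In these 3 cases, and for Arl4c and Akr1b3 in ascending limb cells and Klk1, Ly6d and Gsn in distal convoluted cells, at least 1 Aoah-/- counting interval overlaps that of WT. Values are log2 ratios of the Aoah-/- mean to WT in the other class. Klk1, higher in principal cells, was at -0.46 in ascending limb and -0.12 in distal convoluted cells. Foxq1 was at -0.88 and -1.10 in the same classes, Ly6d at -0.81 in distal convoluted cells and Isg15 at -0.83 in intercalated cells. Akr1b3, lower in principal cells, was at 0.71 in intercalated and 0.50 in ascending limb cells, Arl4c at 0.31 and 0.34, and Ppic at 0.50 and 1.16. Cryab was at 0.92 in ascending limb cells and Gsn at 0.13 in distal convoluted cells.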

How the results depend on the processing

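The share of principal cells differed by -0.303 percentage points (Aoah-/- mean minus WT), by -0.201 with 0 UMIs of the 7 excluded genes allowed, by -16.0 with principal and intercalated cells as denominator, and by -0.355 and -0.252 without Aoah-/- replicate 2 or 3. It was negative under every alternative run, but none of these loosened the limits on other distal, proximal and leukocyte genes. Before those limits the share was higher in Aoah-/- mouse 3 (380 of 19692 barcodes) than in WT (220 of 13271). It was lower in Aoah-/- mouse 2 (236 of 15441). The counts of genes higher and lower, 6 and 9, were 11 and 19 at no more than 20% mt- UMIs, 17 and 21 with 0 UMIs of the 7 excluded genes, 17 and 32 with a mean of at least 20 CPM, and 289 and 669 with no filter on low levels. The count of lower genes was 5 without the 10% of cells with most UMIs and 2 with the mean of per-cell CPM, and that of higher genes 12 with mt- genes left out of the total. Against a single Aoah-/- library, without replicate 2 or 3, the counts were 15 and 4 higher and 20 and 25 lower. Over 180 values of the 15 called genes, none changed sign, 126 moved by less than the SD between the Aoah-/- libraries and 54 by more. Of 558 values of other named genes and lists, 366 moved by less and 192 by more. Some small log2 ratios outside the called genes changed sign. S100g ranged from -0.27 to 0.29 and Scnn1g from -0.25 to 0.09. The median of the sodium and potassium transport list ranged from -0.08 to 0.20, and that of the injury list from -0.22 to 0.13. Klk1 ranged from 0.79, without the cells with most UMIs, to 3.58, at no more than 20% mt- UMIs, where few cells held most of it. Gsn ranged from -2.17 to -0.02 and Foxq1 from 0.04 to 2.47. The median of the interferon list ranged from -0.32, without replicate 3, to 2.08. With a limit of 2% or 0.5% of S100g, Klk1 in S100g-high cells was at 1.05 and 0.97, and below 0.5% it was at -0.77 against -1.60 below 1%. That limit and the removal of members with other markers were chosen after seeing the data. The causes of these shifts were not tested. With 117 to 134 cells per library, genes below 50 CPM rest on few UMIs. No paired analysis was possible because the groups share only replicate number 3.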
